A study of Mus musculus with 17 samples.

Results

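AB12 tumors from mice given anti-CTLA4 were compared between day 14 (d14) and day 10 (d10) after implantation, over protein-coding genes. AB12 is a mouse mesothelioma cell line, so all tumors derive from 1 line. Female BALB/c mice, the strain from which the line comes, were 8 weeks old when the cells were injected intraperitoneally. The comparison took the 3 treated d10 tumors and the 3 treated d14 tumors, 6 of the 17 libraries of the series, chosen by their treatment and day in the sample labels. Both treated groups received the anti-CTLA4 antibody clone 9D9 at 200 µg per intraperitoneal injection, from a protocol of 4 injections given as 2 per week. The study's results give injections on d6 and d10 for the treated d14 tumors, not all 4 of the protocol. The injection days of the treated d10 tumors are not given in the sources used here. Untreated tumors of the same days, 5 at d10 and 3 at d14, for which no control antibody is named, served to ask whether the time course differed with treatment and as a reference for some levels. Each library comes from a separate mouse.

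CTLA4 is an inhibitory receptor that activated T cells and regulatory T cells carry on their surface, where it competes with CD28 for the ligands CD80 and CD86. An antibody that blocks it lets T cells keep receiving the CD28 signal, and some antibody clones also remove regulatory T cells, which hold large amounts of CTLA4. Mesothelioma arises from the mesothelium, the cell layer that lines the pleura and the peritoneum, and its cells carry mesothelin (Msln) and keratins.

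RNA from whole tumors was sequenced, and the values are normalized CPM values, the reads of a gene scaled to a common library size and corrected for library composition. A gene was called where the quasi-likelihood test of edgeR gave an adjusted p below 0.05 and the log2 fold change of d14 over d10 was above 1 in size. "Rose" and "fell" are used below only for called genes, and fold changes are given on the log2 scale. Those of the fit itself are given as value ± an approximate standard error. That error was worked back from the fold change and its test statistic, and the fit did not report it. In bulk tissue, fewer cells of a type and less RNA per cell cannot be told apart.

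The 6 libraries held 71233601 to 96759833 counts. Of 21951 protein-coding genes in the table, 14392 passed the filter on low counts, and 1201 of them (8.34%) were called. Of these, 1023 (7.11%) were higher at d14 and 178 (1.24%) were lower. The median log2 fold change of all 14392 genes was -0.01, and the first principal component, 72.3% of the variance, separated the days. The values of the 2 days did not overlap for 9003 of the tested genes (62.6%). Short genes leaned lower at d14. The median was -0.28 among the tenth of genes with the shortest exon length and 0.20 among the tenth with the longest. Over 530 pseudogenes and small RNA genes, the 17 libraries, when cut into 3 sets, put the treated d10 tumors with untreated d10 replicates 4 and 5 and the treated d14 tumors with the untreated d14 tumors. Cut into 2 sets, all 6 treated tumors lay together, and cut into 4 the treated d14 tumors stood alone. At 3 and 4 sets, day and library set cannot be told apart within the treated tumors.

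The tumor markers were present in all 6 libraries. Msln was counted at 475, 636 and 497 CPM at d10 and at 373, 358 and 415 CPM at d14. Krt8 stood at 986, 1220 and 1070 CPM and then at 665, 592 and 671 CPM. Ctla4 itself had at most 2 counts in any of the 6 libraries and was not tested, so its transcript gives no check of the treatment. Kif11, a mitotic motor, and Trem2, a macrophage receptor, were likewise at or near 0 in all libraries, and whether the counting used strand is not given in the sources used here, so the untested genes of the lists are not read as absent. The 43 gene lists described below held 684 different genes, of which 625 were tested, 54 were in the table and did not pass the filter on low counts, and 5 were not found by symbol. Among the 625 tested genes 105 rose and 14 fell. Of all tested genes 7.11% rose and 1.24% fell, the shares beside which the counts of each list below are to be read.

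T cell genes lay at d14 at about their d10 level in the treated tumors. None of the 20 tested genes of T cell receptor signaling was called, their median log2 fold change was 0.24 against -0.01 for all genes, and 9 of the 20 lay higher and 2 lower in every d14 tumor than in any d10 tumor, where 62.6% of all tested genes did not overlap. Cd3e, a chain of the CD3 complex that passes on the T cell receptor signal, was counted at 55, 45.5 and 48.3 CPM at d10 and at 56.3, 55.7 and 56.6 CPM at d14. All 3 d14 values stood above the d10 values, by 0.19 ± 0.08 (adjusted p = 0.08). Cd8a, the coreceptor of cytotoxic T cells, stood at 69.7, 57.8 and 58 CPM and then at 76.6, 82 and 70.5 CPM, a difference of 0.32 ± 0.10 (adjusted p = 0.028). Its partner chain Cd8b1 overlapped between the days, with a log2 fold change of 0.03 ± 0.09 (adjusted p = 0.839). Cd4, the coreceptor of helper and regulatory T cells, had the largest difference of the list. It was at 5.17, 4.57 and 4.66 CPM at d10 and at 9.04, 10.2 and 8.13 CPM at d14, and the difference of 0.94 ± 0.13 (adjusted p = 0.000838) stayed under the fold threshold. The surface glycoprotein Thy1 (0.09 ± 0.10, adjusted p = 0.475) and the adaptor Lcp2 (0.28 ± 0.08, adjusted p = 0.023) had the most counts of the list.

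Of 16 tested genes of cytotoxicity, none rose and 1, Gzma, fell. Gzma encodes granzyme A, a protease of cytotoxic granules (GRCm38, chromosome 13, 113093825 to 113100981). It was counted at 72, 60.6 and 57.2 CPM at d10 and at 24.7, 19.1 and 18.7 CPM at d14. Every d14 tumor lay below every d10 tumor, and Gzma fell by 1.59 ± 0.13 on the log2 scale (adjusted p = 0.00028). The other granzymes did not share that size of difference. Gzmb was at 359, 274 and 306 CPM and then at 276, 216 and 213 CPM, with 1 d14 value inside the d10 range (-0.40 ± 0.13, adjusted p = 0.0303). Gzmc lay lower in each d14 tumor (-0.57 ± 0.15, adjusted p = 0.014), whereas Gzme (0.55 ± 0.13, adjusted p = 0.00803) and Gzmf (0.49 ± 0.12, adjusted p = 0.00881) lay higher in each. Perforin (Prf1), which opens the pore through which granzymes enter the target cell, was at 233, 176 and 229 CPM at d10 and at 213, 224 and 190 CPM at d14 (-0.01 ± 0.11, adjusted p = 0.944). Interferon gamma (Ifng) overlapped as well, at 12.5 to 15.4 CPM and 10.5 to 14.2 CPM (-0.04 ± 0.14, adjusted p = 0.823). In the list of natural killer cell genes, 10 were tested and none was called. Klrg1, an inhibitory receptor of late effector T cells and natural killer cells, had the lowest value of that list (-0.90 ± 0.14, adjusted p = 0.00144), and Klrk1, the activating receptor NKG2D, the highest (0.53 ± 0.11, adjusted p = 0.00507), while the adhesion receptor Cd226 overlapped between the days (0.18 ± 0.11, adjusted p = 0.19).

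Among 11 tested inhibitory receptors only Btla rose. Btla, a receptor of B cells and T cells, went from 2.61 to 3.48 CPM at d10 to 6.01 to 7.2 CPM at d14 (1.16 ± 0.16, adjusted p = 0.000821). Pdcd1, which encodes PD-1, was at 48.2, 50.4 and 47.5 CPM and then at 34.1, 38.6 and 36 CPM. All d14 values lay below the d10 values, with a log2 fold change of -0.41 ± 0.07 (adjusted p = 0.00214). Havcr2, which encodes TIM-3, lay the other way, at 45.9 to 60.9 CPM and 74.8 to 86.2 CPM (0.61 ± 0.11, adjusted p = 0.00251). Lag3 overlapped between the days (-0.03 ± 0.10, adjusted p = 0.828). Of 12 checkpoint ligands, Cd200, the ligand of an inhibitory receptor of myeloid cells, was the 1 that rose, from 18.9, 18.2 and 18.1 CPM to 49.4, 42.5 and 34.1 CPM (1.21 ± 0.13, adjusted p = 0.000386). The transcript of PD-L1, Cd274, was at 258, 221 and 243 CPM at d10 and at 479, 474 and 401 CPM at d14. Its d14 values all stood above its d10 values, and the log2 fold change of 0.92 ± 0.10 (adjusted p = 0.000386) was just under the fold threshold.

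Genes of naive, memory and migrating lymphocytes were higher at d14. In the list of naive and homing genes 4 of 12 rose and none fell, against 7.11% and 1.24% of all tested genes, with a median of 0.92. These 4 were the chemokine receptors Ccr7, Cxcr3, Ccr4 and Ccr6, and with total counts as library sizes 7 of the list were called. Ccr7, which guides lymphocytes and dendritic cells to lymph nodes, was at 1.92, 2.57 and 2.13 CPM at d10 and at 4.89, 6.34 and 5.44 CPM at d14 (1.35 ± 0.17, adjusted p = 0.000641). Cxcr3, the receptor of the interferon-induced chemokines, was at 4.43, 3.99 and 2.5 CPM and then at 9.42, 9.13 and 7.73 CPM (1.28 ± 0.20, adjusted p = 0.00154). For both genes all d14 values lay above all d10 values. Ccr4 (1.63 ± 0.28, adjusted p = 0.00198) and Ccr6 (2.56 ± 0.35, adjusted p = 0.000839) were scarce, at no more than 22 counts in any d10 library and at 57 to 127 counts at d14. The receptor of interleukin 7, Il7r, marks naive and memory T cells and stood at 29.9 to 44.8 CPM and then at 56.7 to 69.3 CPM (0.87 ± 0.15, adjusted p = 0.00205).

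In the list of effector and exhaustion transcription factors, 2 of 16 rose and none fell, with a median of 0.53. Bach2, a repressor that favors memory over effector fate, was at 2.98 to 3.92 CPM and then at 6.51 to 7.61 CPM (1.06 ± 0.14, adjusted p = 0.000786). Tox2, a relative of the exhaustion factor Tox, was at 0.555 to 0.955 CPM and then at 1.43 to 1.81 CPM (1.11 ± 0.24, adjusted p = 0.00511). With total counts as library sizes 5 were called. The calls of Bach2 and Tox2 rested on the fold threshold, since without d10 replicate 2 the values were 0.96 for Bach2 and 0.93 for Tox2. Tox was at 6.34, 5.64 and 7.21 CPM and then at 3.58, 4.14 and 4.13 CPM, below all d10 values (-0.68 ± 0.14, adjusted p = 0.00382). Tcf7, which encodes TCF-1, a factor of naive and stem-like T cells, stood at 5.7 to 6.45 CPM at d10 and at 10.4 to 12.3 CPM at d14 (0.91 ± 0.11, adjusted p = 0.000628).

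The regulatory T cell list held the largest log2 fold change of a single gene among the T cell lists. Foxp3, the master transcription factor of regulatory T cells (GRCm38, chromosome X, 7573644 to 7595245), had 19, 30 and 35 counts in the d10 libraries and 238, 301 and 278 counts in the d14 libraries. As normalized values these were 0.227, 0.438 and 0.507 CPM against 2.34, 3.26 and 3.07 CPM. The ranges were far apart, and Foxp3 rose by 2.91 ± 0.29 (adjusted p = 0.000333). The untreated d10 tumors held 1.46 to 3.28 CPM of Foxp3 and the untreated d14 tumors 0.874 to 1.86 CPM, so the treated d10 tumors lay below, and the treated d14 tumors inside, the untreated d10 range. Gpr83, a receptor of regulatory T cells, was called as well, from 2 to 5 counts per library to 15 to 23. It passed the filter on low counts through the d14 tumors, so only a rise could be called and no fold change is given. The other 10 tested genes of the list were not called. Ikzf4, the relative of Helios named Eos, was at 2.12 to 2.4 CPM and then at 3.92 to 4.75 CPM (0.95 ± 0.15, adjusted p = 0.00147), while the interleukin 2 receptor chain Il2ra overlapped (0.10 ± 0.14, adjusted p = 0.599).

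B cell genes had the highest median of the immune lists. Of 16 tested B cell genes 13 rose and none fell, where 7.11% of all tested genes rose. Of the 16, 15 lay higher in every d14 tumor than in any d10 tumor, where 62.6% of all tested genes did not overlap. Their median log2 fold change was 2.39. Ms4a1, the B cell surface protein CD20, was at 0.716, 1.65 and 1.01 CPM at d10 and at 9.38, 6.74 and 5.55 CPM at d14 (2.71 ± 0.31, adjusted p = 0.000519). Fcer2a (CD23), the low-affinity receptor of IgE on mature B cells (GRCm38, chromosome 8, 3681737 to 3694175), had 5, 7 and 8 counts in the d10 libraries and 163, 146 and 115 counts in the d14 libraries. For both genes the days were well apart, without overlap. Fcer2a passed the filter on low counts through the d14 tumors, so only a rise could be called. It is 1 of the 13, and no fold change is given for it. Cr2 (CD21), the complement receptor of follicular and marginal zone B cells, rose by 2.98 ± 0.31 (adjusted p = 0.000386), and the transcriptional coactivator Pou2af1 by 2.90 ± 0.27 (adjusted p = 0.000328) from 1.72 to 2.66 CPM to 11.6 to 21.6 CPM. The 3 genes that were not called were Pax5, Cd22 and Cd72. Pax5 was at 23.7 to 30.7 CPM at d10 and at 30 to 37.8 CPM at d14 (0.25 ± 0.11, adjusted p = 0.0924). With all 5 groups of the series in one fit 9 of the 16 were called. With d14 replicate 2 as the lone d14 tumor 13 were called, a fit that takes its spread from the 3 d10 tumors and assumes that the lone tumor varies like them.

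Plasma cell genes moved in the same direction, with 5 of 9 called higher and none lower, against 7.11% and 1.24% of all tested genes. Jchain, which joins IgA and IgM subunits, was at 27.4, 32.3 and 23.3 CPM at d10 and at 266, 126 and 109 CPM at d14. Each d14 value was above every d10 value, d14 replicate 1 stood highest, and Jchain rose by 2.61 ± 0.32 (adjusted p = 0.000605). Derl3 (2.68 ± 0.33, adjusted p = 0.000629) and Mzb1 (2.08 ± 0.39, adjusted p = 0.00278), which serve the secretory pathway of antibody-forming cells, rose too, as did Eaf2 (1.20 ± 0.24, adjusted p = 0.00369), which was at 0.99 without d14 replicate 1. The share of all counts on immunoglobulin genes was 0.0297% to 0.0434% at d10 and 0.204% to 0.433% at d14. Xbp1, Sdc1 and Pim2 overlapped between the days.

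**Figure D1:**
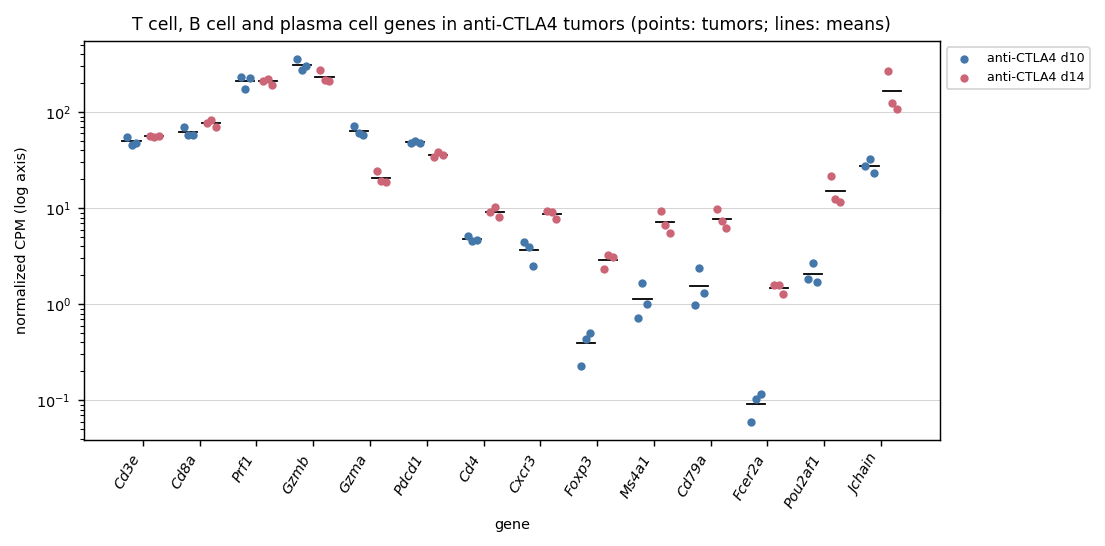
Normalized CPM on a log axis of 14 T cell, regulatory T cell, B cell and plasma cell genes in each treated tumor at d10 and d14, with points for tumors and lines for group means. Cd3e, Cd8a and Prf1 lie at similar heights on both days, Gzma lies lower at d14, and Foxp3, Ms4a1, Fcer2a and Jchain lie higher at d14 with no overlap.

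Dendritic cell genes were higher at d14, with 6 of 16 called higher and none lower, against 7.11% and 1.24% of all tested genes. Flt3, the growth factor receptor of dendritic cell precursors, was at 1.55, 1.74 and 1.56 CPM and then at 4.52, 5.61 and 5.22 CPM (1.67 ± 0.15, adjusted p = 0.000328). Xcr1, the receptor that marks cross-presenting dendritic cells, was at 2.43 to 3.3 CPM and then at 6.72 to 8.58 CPM (1.40 ± 0.17, adjusted p = 0.000593). Neither gene overlapped between the days. Cd209a, a lectin of monocyte-derived dendritic cells, rose by 3.16 ± 0.35 (adjusted p = 0.000465) from 13 to 23 counts to 131 to 300 counts. The chemokine Ccl22, which attracts cells with Ccr4, rose by 1.22 ± 0.15 (adjusted p = 0.000621), and Siglech and Ccr9, both found on plasmacytoid dendritic cells, rose by 1.88 ± 0.24 (adjusted p = 0.000641) and 1.20 ± 0.21 (adjusted p = 0.00219). Itgax, the integrin CD11c, lay lower at d14, at 73.2 to 85.4 CPM and then at 43.7 to 61.4 CPM (-0.61 ± 0.13, adjusted p = 0.00579).

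Few macrophage and monocyte genes were called. Of 21 tested genes of tumor macrophages, Apoe rose and Lyve1 fell. Apoe, which carries lipids and is abundant in tissue macrophages, was at 429, 368 and 362 CPM at d10 and at 1570, 1620 and 1170 CPM at d14. The days were separated by more than the spread within either, and Apoe rose by 1.93 ± 0.14 (adjusted p = 0.00028). Lyve1, which marks resident macrophages and lymphatic vessels, fell by 1.05 ± 0.27 on the log2 scale (adjusted p = 0.0124) from 4.73 to 8.16 CPM to 2.19 to 4.38 CPM. Its value was -0.98 without d10 replicate 2, -0.93 without d10 replicate 3, -0.84 without d14 replicate 2 and -0.93 with total counts as library sizes, each under the fold threshold. Csf1r, the receptor on which macrophages depend, stood at 225 to 264 CPM and then at 355 to 496 CPM (0.81 ± 0.12, adjusted p = 0.00125), and the C1q genes, Mrc1 and Spp1 overlapped. Among 14 tested genes of peritoneal macrophages, Cxcl13, which attracts B cells, rose from 5.38, 9.37 and 7.53 CPM to 24.5, 29.6 and 28.6 CPM (1.91 ± 0.17, adjusted p = 0.000328), and the complement receptor Vsig4 rose by 1.54 ± 0.24 (adjusted p = 0.00137). Of 11 tested monocyte genes, S100a4 alone was called, and it fell by 1.22 ± 0.22 on the log2 scale (adjusted p = 0.00229). In the list of osteoclast-like genes, Mmp9 (1.05 ± 0.14, adjusted p = 0.00083) and Mst1r (1.17 ± 0.18, adjusted p = 0.00136) rose, and the fusion protein gene Ocstamp fell by 1.95 ± 0.16 on the log2 scale (adjusted p = 0.00028) from 7.11 to 7.92 CPM to 1.66 to 2.31 CPM. Mmp9 was at 0.91 without d10 replicate 2 and at 0.98 without d14 replicate 2.

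Granulocyte genes moved unevenly. Of 18 tested neutrophil genes 4 rose and none fell. Csf3r, the receptor of the neutrophil growth factor G-CSF, was at 26.8, 22.6 and 27.7 CPM and then at 64.8, 74.1 and 54.1 CPM (1.34 ± 0.12, adjusted p = 0.000328). Cxcr2, which guides neutrophils to CXC chemokines, was at 3.21 to 3.39 CPM and then at 7.18 to 8.27 CPM (1.25 ± 0.12, adjusted p = 0.000328). These values did not overlap, whereas the granule genes Camp, Ngp and Ltf and the calcium-binding S100a8 and S100a9 did, with d10 replicate 3 highest or second highest for each. The lectin receptor Clec4d rose by 1.11 ± 0.12 (adjusted p = 0.000386), and the collagenase Mmp8 by 1.03 ± 0.15 (adjusted p = 0.00118). Mmp8 was at 0.94 without d10 replicate 2 and at 0.86 without d14 replicate 1. In the list of eosinophil and type 2 genes, 4 of 14 rose, and these were scarce. Epx, a peroxidase of eosinophil granules, went from 3 to 11 counts per library to 29 to 46 (1.79 ± 0.41, adjusted p = 0.00731), and Il5ra, the receptor of the eosinophil growth factor interleukin 5, from 8 to 16 counts to 29 to 72 (1.74 ± 0.41, adjusted p = 0.0084). Both passed the filter on low counts only with their d14 values, which favors a call upward. Ear1 rose by 1.62 ± 0.26 (adjusted p = 0.00153) and Il13 by 1.07 ± 0.33 (adjusted p = 0.0239). With d14 replicate 2 as the lone d14 tumor, and with all 5 groups in one fit, 2 of the eosinophil genes were called. Ms4a2, a chain of the IgE receptor, was the 1 mast cell gene of 10 that rose (1.35 ± 0.42, adjusted p = 0.0262). The calls of Il13 and Ms4a2 were lost without any 1 of d10 replicates 1 and 2 and d14 replicates 1 and 2, at 0.78 to 1.11 for Il13 and at 1.08 to 1.26 for Ms4a2, and with all 5 groups in one fit.

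Chemokine genes went both ways, with 2 of 19 called higher and 2 lower, against 7.11% and 1.24% of all tested genes. Cxcl12, a stromal chemokine that holds lymphocytes and progenitors in tissues, was at 52.7, 45.1 and 47.7 CPM and then at 115, 174 and 124 CPM (1.52 ± 0.15, adjusted p = 0.00033). Xcl1, made by cytotoxic T cells and natural killer cells to attract Xcr1-bearing dendritic cells, was at 4.72, 5.96 and 3.95 CPM and then at 1.35, 1.95 and 1.57 CPM, and fell by 1.57 ± 0.21 on the log2 scale (adjusted p = 0.000768). The ligand was thus lower and its receptor higher in every d14 tumor. Ccl12, a monocyte attractant, fell by 1.29 ± 0.16 on the log2 scale (adjusted p = 0.000668), and the neutrophil attractant Cxcl5 rose by 1.18 ± 0.13 (adjusted p = 0.00042). Of 17 inflammatory cytokine genes 3 rose and none fell. Il1b was at 36.9, 33.4 and 28.5 CPM and then at 103, 99.6 and 95.3 CPM, well separated (1.61 ± 0.11, adjusted p = 0.00028). Il1a, which acts on the same receptor, rose by 1.25 ± 0.13 (adjusted p = 0.000411). Il12b, a subunit of interleukins 12 and 23, rose by 2.37 ± 0.38 (adjusted p = 0.00161) from 6 to 12 counts to 45 to 75 counts. It passed the filter on low counts only with its d14 values, which favors a call upward. Of 16 complement genes 3 rose and none fell. C3, the central component, was at 1450, 1350 and 1740 CPM and then at 4240, 3900 and 2710 CPM (1.28 ± 0.17, adjusted p = 0.000734). The regulator Cd55 rose with it (1.30 ± 0.19, adjusted p = 0.00113).

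No interferon-response gene was called in either direction. The medians were -0.33 for 29 tested genes of the type I interferon response, -0.20 for 25 of the interferon gamma response and -0.33 for 19 of MHC class I presentation. Below an adjusted p of 0.05 and without the fold threshold, 15, 12 and 14 of these genes were lower at d14, and 0, 3 and 1 were higher, where 26.1% of all tested genes were lower and 23.2% higher at the same cut. Cxcl9, the ligand of Cxcr3 induced by interferon gamma, was at 441, 472 and 375 CPM and then at 381, 459 and 410 CPM (-0.03 ± 0.10, adjusted p = 0.823). Cxcl10, a second ligand of that receptor, was at 201, 215 and 183 CPM and then at 125, 136 and 130 CPM. Its d14 values lay below its d10 values, by a log2 fold change of -0.60 ± 0.08 (adjusted p = 0.00083). The type I response genes Bst2 (-0.55 ± 0.12, adjusted p = 0.00467) and Zbp1 (-0.24 ± 0.12, adjusted p = 0.121) and the guanylate-binding proteins Gbp4 (0.09 ± 0.08, adjusted p = 0.365) and Gbp2b (-0.28 ± 0.08, adjusted p = 0.0166) had the most counts of their lists. The light chain of MHC class I, B2m, was at 3950, 4450 and 4190 CPM and then at 3440, 3220 and 3340 CPM (-0.32 ± 0.08, adjusted p = 0.0111), and the heavy chain H2-D1 differed by -0.29 ± 0.09 (adjusted p = 0.0238). Of 11 MHC class II genes, H2-Ob, part of the peptide-loading modulator of B cells, rose from 1.79, 1.8 and 1.39 CPM to 6.55, 6.67 and 4.38 CPM (1.84 ± 0.21, adjusted p = 0.000498). H2-Eb2 (1.03 ± 0.35, adjusted p = 0.0366) was called too, and its value without d10 replicate 1, d10 replicate 3, d14 replicate 1 or d14 replicate 3 was 0.71 to 1.02 and not called. H2-Aa, H2-Ab1, H2-Eb1 and Cd74 overlapped between the days.

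Stromal genes were higher at d14. Of 17 tested fibroblast genes 8 rose, of 20 collagen genes 6 and of 23 matrix remodeling genes 3, where 7.11% of all tested genes rose. The medians of these lists were 0.89, 0.82 and 0.43. None of them held a gene that fell, but only 1.24% of all tested genes fell. Dcn (decorin), a proteoglycan that binds collagen fibrils, was at 64, 71.4 and 68.9 CPM at d10 and at 360, 265 and 173 CPM at d14 (1.98 ± 0.22, adjusted p = 0.000492). Pdgfra, the receptor that marks fibroblasts, was at 49, 37.3 and 52.8 CPM and then at 127, 141 and 111 CPM (1.46 ± 0.14, adjusted p = 0.000328). Both genes were separated between the days. Pi16, a marker of adventitial fibroblasts, rose by 1.67 ± 0.19 (adjusted p = 0.000524), and the Wnt modulator Sfrp2 by 1.82 ± 0.21 (adjusted p = 0.000498). The myofibroblast genes Acta2 and Postn overlapped, at 25 to 31.5 CPM and 25.3 to 32.8 CPM for Acta2 (0.04 ± 0.11, adjusted p = 0.762). Among the collagens, Col24a1, a fibrillar collagen, had the largest difference (3.32 ± 0.23, adjusted p = 0.00028), at 0.248 to 0.406 CPM and then at 2.81 to 3.42 CPM. Col14a1 rose by 1.84 ± 0.26 (adjusted p = 0.000916), Col16a1 by 1.14 ± 0.16 (adjusted p = 0.000917) and Col6a2 by 1.07 ± 0.17 (adjusted p = 0.00146), the last at 0.92 without d14 replicate 1. Collagen I, the main collagen of scar tissue, stayed under the fold threshold, with Col1a1 at 804, 578 and 876 CPM and then at 1200, 1580 and 1000 CPM (0.76 ± 0.18, adjusted p = 0.00918). The number of collagen genes called higher was 5 by DESeq2, 5 with all 5 groups in one fit, 8 with total counts as library sizes and 12 with d14 replicate 2 as the lone d14 tumor. Of the proteases, Mmp2 (1.38 ± 0.18, adjusted p = 0.000766), Adamts5 (1.62 ± 0.19, adjusted p = 0.000555) and Adamts12 (1.02 ± 0.23, adjusted p = 0.00634) rose, and Adamts12 was at 0.87 without d10 replicate 2 and at 0.79 without d14 replicate 2. Ltbp2, which binds microfibrils, was the only 1 of 13 TGF-beta genes that was called (1.38 ± 0.10, adjusted p = 0.00028).

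Endothelial genes lay on 1 side, with all 20 above 0 and a median of 0.81. Of the 20, 6 were called higher and none lower, against 7.11% and 1.24% of all tested genes. Kdr, the main receptor of VEGF-A on blood vessels, was at 10.9, 6.25 and 8.7 CPM and then at 20.4, 23.8 and 26.4 CPM (1.46 ± 0.18, adjusted p = 0.000621). Cdh5, the cadherin of endothelial junctions, was at 16.8, 11.4 and 15.6 CPM and then at 27, 37.2 and 39.1 CPM (1.25 ± 0.16, adjusted p = 0.000721). In both genes d10 replicate 2 was the lowest tumor and the days did not overlap. The angiopoietin receptor Tek rose by 1.19 ± 0.24 (adjusted p = 0.00369). Vwf, the von Willebrand factor, was called at the very edge of the fold threshold, from 5.19, 2.91 and 4.78 CPM to 7.55, 9.83 and 8.23 CPM (adjusted p = 0.00421), and was at 0.79 without d10 replicate 2 and at 0.89 without d14 replicate 2. Hemoglobin and other red blood cell genes had a median of 0.78 with none of 7 called, Hbb-bs at 12.9 to 20.7 CPM and then at 21.3 to 24.5 CPM (0.41 ± 0.16, adjusted p = 0.0537) and Hba-a1 with overlap (0.79 ± 0.22, adjusted p = 0.0164), which was called at 1.09 without d10 replicate 2.

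The mesothelial genes split. Of 16 tested genes 9 rose and 2 fell, and those that fell were the keratins Krt19 and Krt7. Muc16, the membrane mucin CA125 (GRCm38, chromosome 9, 18495455 to 18674530), had 9, 9 and 5 counts at d10 and 249, 270 and 120 counts at d14. It is 1 of the 9, but it passed the filter on low counts only with its d14 values. Only a rise could thus be called, and no fold change is given for Muc16. Upk3b, a uroplakin of mesothelial cells, was at 1.43, 2.03 and 1.68 CPM and then at 20.8, 17 and 8.94 CPM (3.21 ± 0.30, adjusted p = 0.000328). The days were far apart for both, and d14 replicate 3 was the lowest of the d14 tumors. Pkhd1l1, a large membrane protein, rose by 3.25 ± 0.26 (adjusted p = 0.00028) and the mesothelial surface protein Lrrn4 by 2.98 ± 0.32 (adjusted p = 0.000393). Wt1, the transcription factor of the mesothelial lineage, rose from 10.9, 10.6 and 11.2 CPM to 44.2, 30.6 and 23.8 CPM (1.61 ± 0.20, adjusted p = 0.000622). In the other direction, Krt19 went from 666, 935 and 808 CPM to 385, 336 and 398 CPM and fell by 1.09 ± 0.12 on the log2 scale (adjusted p = 0.000491). Krt7 fell by 1.15 ± 0.20 on the log2 scale (adjusted p = 0.00229) from 155 to 241 CPM to 63.2 to 110 CPM. Krt8 (-0.75 ± 0.09, adjusted p = 0.00066), Krt18 (-0.62 ± 0.09, adjusted p = 0.00135) and Msln (-0.48 ± 0.11, adjusted p = 0.0089) lay lower in every d14 tumor without reaching the fold threshold. Summed over the list, which the genes with most counts decide, the level was 3070 to 4012 CPM at d10 and 2011 to 2261 CPM at d14. With total counts as library sizes, and with all 5 groups in one fit, 9 were called higher and 1 lower.

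**Figure D2:**
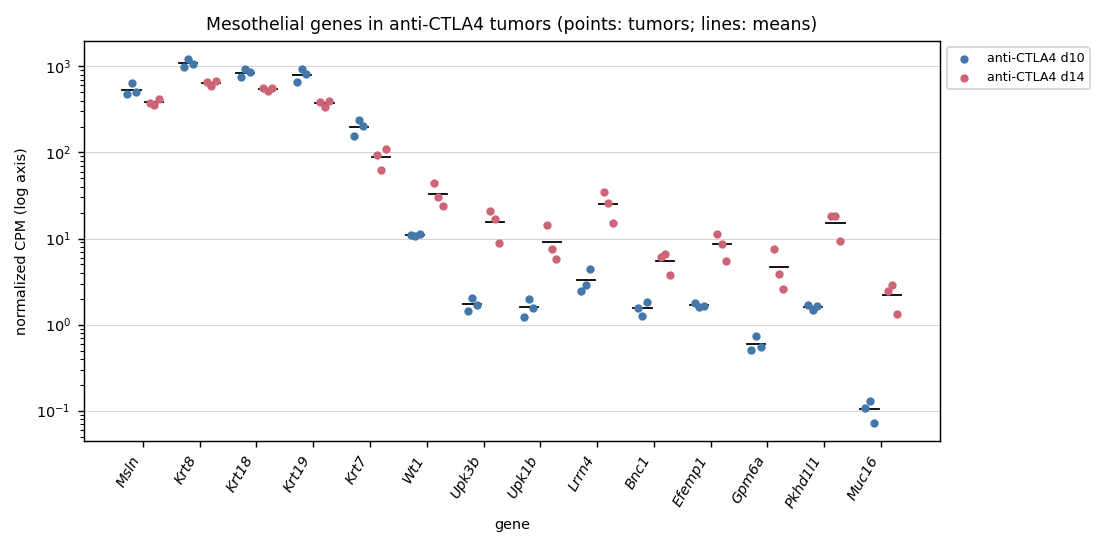
Normalized CPM on a log axis of 14 mesothelial genes in each treated tumor at d10 and d14, with points for tumors and lines for group means. Msln and the keratins Krt7, Krt8, Krt18 and Krt19 are lower in all 3 d14 tumors, while Muc16, Upk3b, Lrrn4 and Pkhd1l1 are higher in all 3.

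The largest log2 fold changes, ranked as described below, belonged to genes known from the pancreas or gut, most of them digestive enzymes or Reg genes. Summed acinar and Reg genes were high in d14 replicates 1 and 3. The 12 acinar genes summed to 1.64 to 1.79 CPM in the d10 tumors and to 4234, 5.24 and 1422 CPM in d14 replicates 1, 2 and 3, against 1.39 to 2.93 CPM in the untreated tumors of both days. Ctrb1, a chymotrypsinogen (GRCm38, chromosome 8, 111686519 to 111691010), had 0, 0 and 6 counts at d10 and 171739, 70 and 53621 counts at d14. Cela1, an elastase, was at 0.967, 1.11 and 0.825 CPM and then at 159, 2.5 and 51.6 CPM. The 2 high tumors and the third thus differed by far more than the d10 tumors did among themselves. Of the 12 acinar genes 8 were tested, as were 3 of the 7 genes of the Reg family, secreted lectins of the pancreas and gut. Most of them had at most 3 counts in some d10 library and passed the filter through the d14 tumors where they were high, so their number of calls is not used and no fold change is given. With d14 replicate 2 as the lone d14 tumor Cpb1, Rnase1, Dmbt1 and Reg2 were not called. The 7 Reg genes summed to 1197, 0.596 and 390.7 CPM at d14. Ranked by log2 fold change among called genes with a mean of at least 5 CPM and no overlap, the top 10 were Reg3b, Cpa1, Pnliprp1, Ctrb1, Reg1, Cpb1, Cela2a, Cel, Rnase1 and Dmbt1, and they are known from the pancreas or gut. Liver genes summed to 0.637 to 1.07 CPM at d10 and to 8.29, 2.96 and 3.58 CPM at d14, with Ahsg (3.13 ± 0.39, adjusted p = 0.000641) and Serpina1b (1.42 ± 0.24, adjusted p = 0.00205) as its 2 tested genes. Skeletal muscle genes summed to 1.32 to 2.18 CPM and to 1.85 to 2.31 CPM, where Ckm fell (-1.67 ± 0.33, adjusted p = 0.00358) from 26 to 36 counts to 10 to 17 counts. Tnnt3 went from 3 or 4 counts to 25 to 37 counts. It passed the filter through the d14 tumors, so only a rise could be called and no fold change is given. Of 8 tested adipocyte genes none was called, with Cd36 at 0.60 ± 0.08 (adjusted p = 0.000917) and Fabp4 at 0.63 ± 0.14 (adjusted p = 0.00584). Of 4 tested intestinal genes none was called, with the intestinal transcription factor Cdx2 at -0.96 ± 0.09 (adjusted p = 0.000328) and the lectin Lgals4 at -0.75 ± 0.22 (adjusted p = 0.0216), and Cdx2 was called at -1.04 without d10 replicate 1 and at -1.03 without d14 replicate 3.

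**Figure D3:**
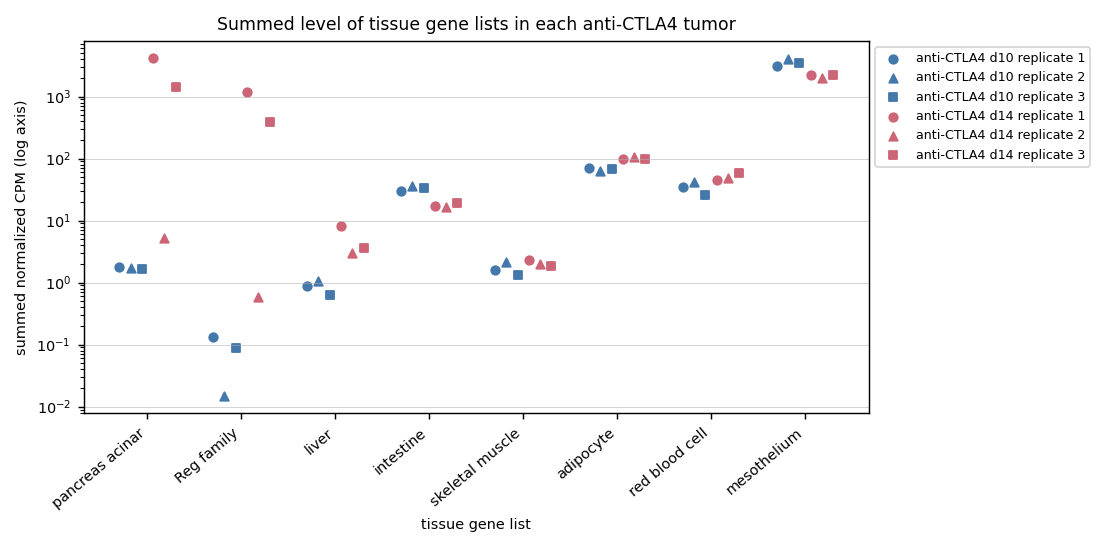
Summed normalized CPM on a log axis of 8 lists of tissue genes in each of the 6 treated tumors. Pancreas acinar and Reg genes stand apart in d14 replicates 1 and 3, at 4234 and 1422 CPM for the acinar genes, while d14 replicate 2, at 5.24 CPM, lies nearer the d10 tumors.

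Since d14 replicate 2 held little pancreatic RNA, the called genes were ranked again among those with a mean of at least 5 CPM, no overlap and at least 5 CPM in that tumor, a rule chosen after the values were seen. Clec3b, which encodes the plasminogen-binding protein tetranectin (GRCm38, chromosome 9, 123150946 to 123157432), led this order with 0.609, 0.92 and 0.753 CPM at d10 and 19, 13 and 6.87 CPM at d14. The days did not overlap, and Clec3b rose by 4.12 ± 0.37 (adjusted p = 0.000328), followed by the mesothelial genes Pkhd1l1, Upk3b and Lrrn4 and the B cell coactivator Pou2af1. Cadm3, Spon2, Nkain4, Col6a5, Jchain and Gucy1a1 came next.

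Among called genes with a mean of at least 5 CPM and no overlap, the lowest log2 fold changes were these. Stra6, the cell-surface receptor for retinol-binding protein (GRCm38, chromosome 9, 58063788 to 58153996), was at 23.7, 32.7 and 28.3 CPM at d10 and at 8.28, 5.88 and 9.26 CPM at d14, well apart (-1.84 ± 0.17, adjusted p = 0.000328). Fbp2, a fructose bisphosphatase, was at -1.77 ± 0.16, the mitochondrial carrier Slc25a48 at -1.66 ± 0.18, Teddm3 at -1.59 ± 0.17 and the tetraspanin Tspan8 at -1.59 ± 0.13. Gzma belonged to this group as well, with Vnn1, a pantetheinase, at -1.49 ± 0.14 and the ribosomal protein gene Rpl37 at -1.46 ± 0.16. Rpl9-ps6 and Ftl1-ps1, at -1.85 ± 0.19 and -1.48 ± 0.22, share reads with near-identical copies and are uncertain.

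Growth, translation and energy genes lay lower at d14. Of 29 tested proliferation genes none was called, but 26 were below 0 and 22 had an adjusted p below 0.05 in that direction, against 26.1% of all tested genes, with a median of -0.36. Top2a, a topoisomerase of dividing cells, was at 660, 607 and 640 CPM and then at 464, 485 and 522 CPM (-0.36 ± 0.07, adjusted p = 0.00331), whereas Mki67 overlapped (0.19 ± 0.15, adjusted p = 0.319). All 22 tested genes of oxidative phosphorylation lay below 0, with a median of -0.64, and 2 of them fell, the cytochrome c oxidase subunit Cox7c (-1.03 ± 0.10, adjusted p = 0.000329) and the ATP synthase subunit Atp5o (-1.01 ± 0.14, adjusted p = 0.000839). Both sat at the fold threshold, and without d10 replicate 2 they were at -0.92 and -0.86, without d14 replicate 1 Cox7c was at -0.99 and without d14 replicate 3 Atp5o was at -0.94. Of 76 ribosomal protein genes, a list added after values were seen, 18 fell, none rose and 75 lay below 0, with a median of -0.85. These genes took 2.96% to 3.55% of all counts at d10 and 1.94% to 2.02% at d14. Ribosomal protein genes are short, and after each gene was centred on the median of its length class the medians were -0.65 for this list and -0.40 for oxidative phosphorylation. With total counts in place of composition-corrected library sizes, 12 ribosomal protein genes and none of the oxidative phosphorylation genes were called, with Cox7c at -0.91 and Atp5o at -0.89. Gene length and library set moved with these lists, and their part beyond the centring was not tested.

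In the stress lists, Hsph1 (-1.10 ± 0.14, adjusted p = 0.000725), Hspa1b (-1.06 ± 0.21, adjusted p = 0.00412) and Hspa1a (-1.02 ± 0.27, adjusted p = 0.0129), chaperones of the heat shock response, fell, 3 of 13 genes of the immediate early and heat shock list, and none rose. Hsph1 was at 228, 317 and 290 CPM at d10 and at 150, 111 and 127 CPM at d14, without overlap. Its value fell just short of the fold threshold without d10 replicate 2 (-0.99) or d14 replicate 2, and Hspa1a and Hspa1b also lost their calls without either of these libraries or without d14 replicate 3, at -0.80 to -0.98. With total counts in place of composition-corrected library sizes none of the 3 was called, with Hsph1 at -0.98, Hspa1b at -0.94 and Hspa1a at -0.91. Hspa1a lost its call without d10 replicate 3 as well (-0.99). Of 14 genes of the amino acid and endoplasmic reticulum stress response none was called, with Hspa5 at -0.41 ± 0.10 (adjusted p = 0.0113) and Atf4 at -0.27 ± 0.07 (adjusted p = 0.0139), and none of 22 genes of hypoxia and glycolysis was called, with Ldha, lactate dehydrogenase A, at -0.66 ± 0.11 (adjusted p = 0.00187).

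**Figure D4:**
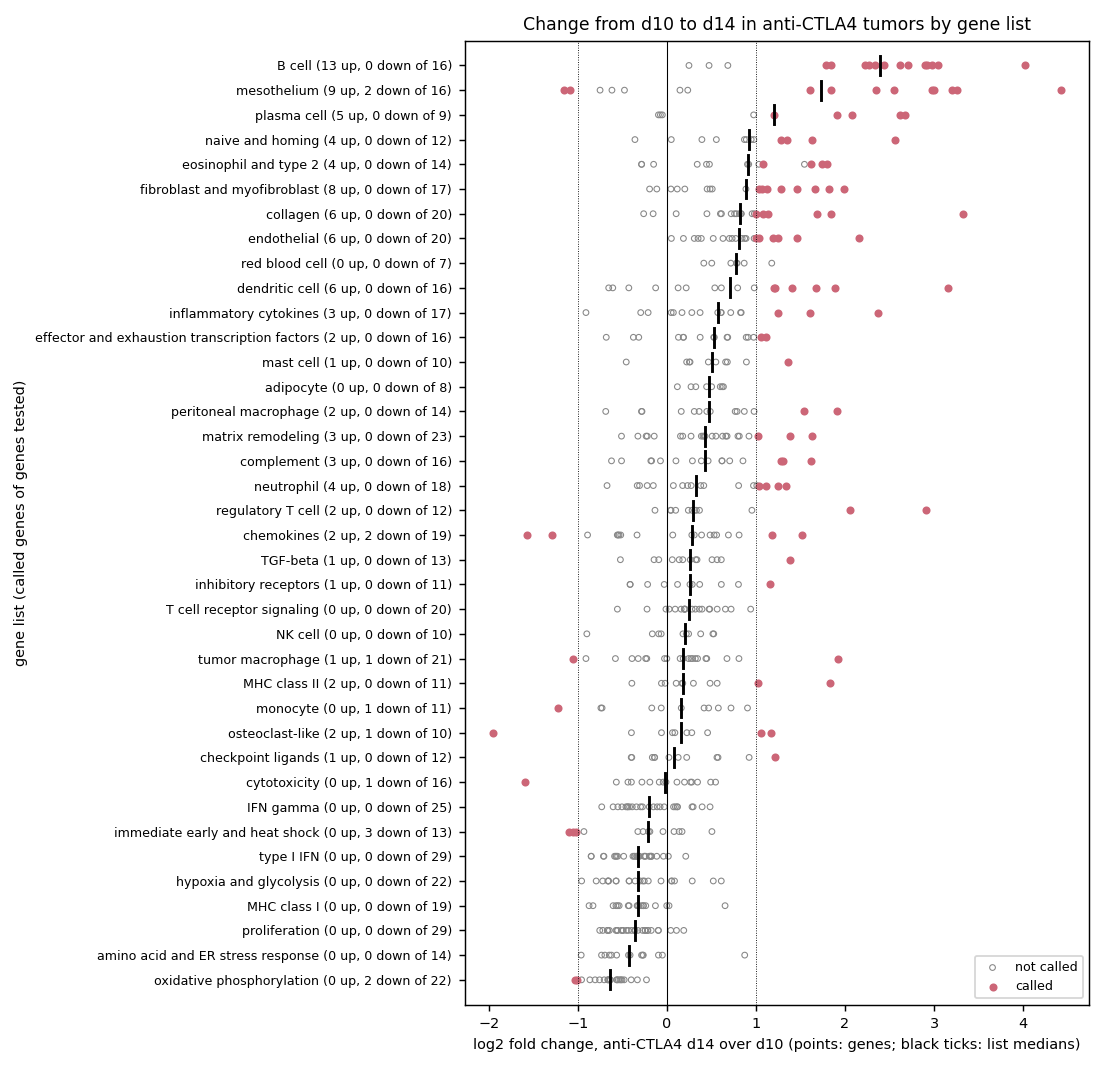
Log2 fold change of d14 over d10 in treated tumors for each tested gene of 38 lists, with called genes as filled red points and the list median as a black tick. The median lies above 0 for the B cell, mesothelial, fibroblast, collagen and endothelial lists, near 0 for the cytotoxicity list and below 0 for the proliferation and oxidative phosphorylation lists, and the mesothelial list holds called genes on both sides.

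The treated time course was then set against the untreated one by the interaction of day and treatment, fitted over 14 libraries. It asks whether the log2 fold change of d14 over d10 differed between treated and untreated tumors. Of 14628 tested genes 1765 (12.1%) were called, 1588 (10.9%) with a higher value under treatment and 177 (1.21%) with a lower one. In this test, higher or lower under treatment refers to that fold change and not to a level. In the untreated tumors alone 953 genes (6.51%) were called between the days, 309 (2.11%) higher and 644 (4.4%) lower at d14. The untreated d10 libraries fell into 2 of the library sets described above, so the test was repeated with untreated d10 replicates 4 and 5 alone, which lay with the treated d10 tumors, and it then called 1824 genes.

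Most T cell genes differed in this test. Of 20 genes 16 were called higher under treatment, against 10.9% of all tested genes. Their median was -1.13 in the untreated and 0.24 in the treated time course. The count was 17 with untreated d10 replicates 4 and 5 alone, where 1590 of all tested genes were called higher. With d14 replicate 2 as the lone treated d14 tumor the median interaction was 1.34, against 1.33 in the main fit. Cd3e stood at 53.7 to 63.1 CPM in the untreated d10 tumors and at 21.3 to 36 CPM in the untreated d14 tumors, so that its d14 level was lower without treatment and its interaction was 1.18 ± 0.19 (adjusted p = 0.0036). Without untreated d14 replicate 2 the value was 0.98 and under the fold threshold. Cd8a (1.05 ± 0.24, adjusted p = 0.011) lost its call without untreated d10 replicate 4 (0.99), untreated d14 replicate 2 (0.82) or treated d14 replicate 2 (0.98). Cd4 differed by 2.14 ± 0.34 (adjusted p = 0.0034) and the kinase Lck, which starts T cell receptor signaling, by 1.36 ± 0.26 (adjusted p = 0.0053).

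Gzmb was at 235 to 386 CPM in the untreated d10 tumors and at 67.9 to 102 CPM in the untreated d14 tumors, against 213 to 276 CPM in the treated d14 tumors, with an interaction of 1.51 ± 0.27 (adjusted p = 0.0043). Gzma, which fell in the treated tumors, fell further in the untreated ones, from 55.3 to 101 CPM to 4.64 to 12.7 CPM, and its interaction was 1.40 ± 0.39 (adjusted p = 0.025). For Prf1 (0.82 ± 0.25, adjusted p = 0.036), Pdcd1 (0.35 ± 0.33, adjusted p = 0.51), Havcr2 (0.27 ± 0.25, adjusted p = 0.5) and Lag3 (1.03 ± 0.41, adjusted p = 0.095) the interaction was not called, and Lag3 was called at 1.16 without untreated d10 replicate 3 and at 1.36 without untreated d14 replicate 3, and also at 1.39 with untreated d10 replicates 4 and 5 alone. Foxp3 had 1 of the larger values of the T cell lists, 3.87 ± 0.54 (adjusted p = 0.0024), and the treated d10 tumors held the lowest Foxp3 of the 4 groups.

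B cell genes had a median interaction of 3.87, with 10 of 16 called higher, against 10.9% of all tested genes. The untreated values were widely spread, with Ms4a1 at 3.27 to 35.3 CPM at d10, where replicate 4 stood far above the others, and at 0.451 to 10.4 CPM at d14. Cd79a (4.38 ± 1.28, adjusted p = 0.031) lost its call without any 1 of the 3 treated d10 tumors, treated d14 replicates 1 and 2 and untreated d14 replicates 1 and 2, at 3.84 to 4.83. With d14 replicate 2 as the lone treated d14 tumor the median interaction of the list was 3.86. Eosinophil and type 2 genes were called higher in 14 of 17 in the interaction, against 10.9% of all tested genes, with a median of -2.18 in the untreated time course. In the treated comparison 4 of 14 were called, of which Epx and Il5ra passed the filter on low counts only with their d14 values. Summed over the list, the level was 266.1 to 277.3 CPM at treated d10 and 204 to 269.5 CPM at treated d14. In untreated tumors it was 246.9 to 482 CPM at d10 and 153.2 to 238.9 CPM at d14. With untreated d10 replicates 4 and 5 alone 10 of 16 tested genes of the list had an interaction called higher. The median interaction was 2.90 in the main fit and 2.72 with d14 replicate 2 as the lone treated d14 tumor. Collagen (13 of 20), fibroblast (10 of 18), mesothelium (8 of 16), complement (9 of 16) and tumor macrophage genes (9 of 21) also had interactions called higher, against 10.9% of all tested genes. Examples were Csf1r (1.65 ± 0.34, adjusted p = 0.0067), C1qb (1.89 ± 0.30, adjusted p = 0.0034) and Dcn (2.28 ± 0.48, adjusted p = 0.0079). For mesothelium the count was 7 of 16 with untreated d10 replicates 4 and 5 alone. The median interaction was 1.97 when untreated d10 replicates 4 and 5 and treated d14 replicate 2 were used together. With untreated d10 replicates 1 to 3 only, 8 mesothelium genes were called higher and 3 lower, where 1892 and 432 of all tested genes were. The summed level of the mesothelium list at d14 was 2011 to 2261 CPM in treated and 2939 to 3078 CPM in untreated tumors. For the tumor markers the interaction was not called, with Msln at -0.96 ± 0.35 (adjusted p = 0.075) and Krt19 at -0.79 ± 0.26 (adjusted p = 0.048). Of the ribosomal protein genes 18 of 76 were called lower under treatment, against 1.21% of all tested genes. Of the type I interferon genes none was called, with a median of -0.56.

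**Figure D5:**
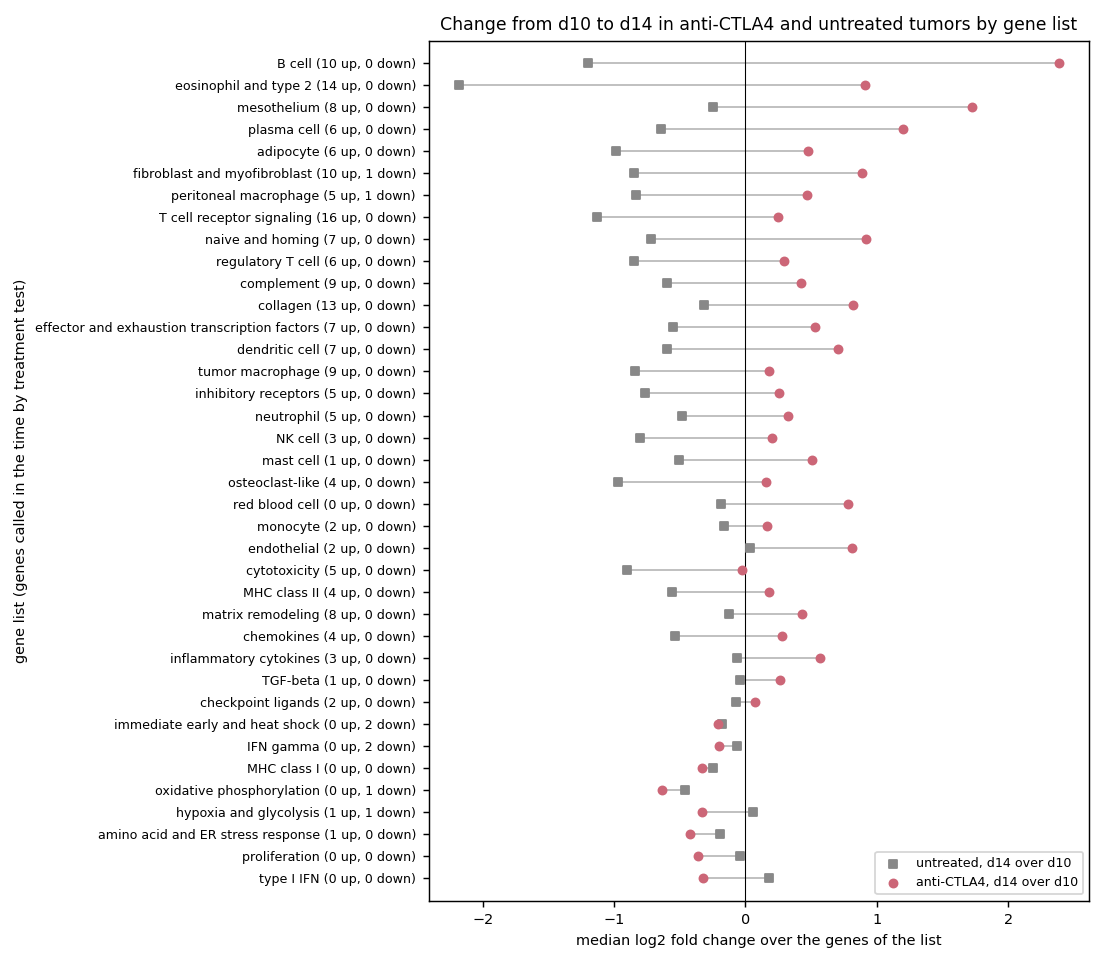
Median log2 fold change of d14 over d10 of each list in treated and untreated tumors, sorted by the median interaction, with the numbers of genes called higher and lower in the interaction in each label. For the T cell list the treated median is 0.24 and the untreated median -1.13, and for the B cell list they are 2.39 and -1.20.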

How the data were processed

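Gene counts of 17 tumor libraries were deposited as 1 table. The authors aligned paired-end reads to GRCm38 with TopHat2 2.0.14, kept uniquely mapped reads and counted them per gene with HTSeq on Gencode vM21, so the deposited values are whole-number counts without normalization. Whether counting used strand, and which library ran on which of 2 sequencers, is not given in the sources used here. The 6 treated libraries were fitted with edgeR 4.0.16 in R 4.3.3 (filterByExpr on the groups, TMM factors, quasi-likelihood test), with Benjamini-Hochberg adjustment over the 17791 tested genes of all biotypes. Day by treatment was fitted the same way over 14 libraries. DESeq2 1.42.0 was an alternative. The script was tested on simulated counts. A few genes are counted in the lists and not reported here. Plots were made in Python 3.11.15 (matplotlib 3.10.9). The members and gene lists were chosen with earlier results of these data known. Text names immune genes set by name, the 10 largest changes in each direction with a mean of at least 5 CPM and no overlap, up to 4 called genes per list by p-value (2 most abundant where none was called) and the 5 largest interactions each way; further genes were chosen after their values were seen. The labels do not say that replicate numbers pair the tumors, so they were fitted as unpaired. Same-numbered tumors correlated at -0.19, -0.10 and -0.01 and the others at -0.08 to 0.18, which with 3 tumors a group cannot decide it.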

Additional observations from a re-analysis of the deposited data

Results flagged for a closer look

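The time course differed with treatment, by the interaction test, in 1765 genes, 1588 of them higher and 177 lower under treatment. Among the immune genes set by name the interaction was called for Foxp3 (3.87), Gzmb (1.51), Cd8b1 (1.44), Ifng (1.35), Cd3e (1.18) and Cd8a (1.05). The call of Ifng was lost without any 1 of 11 of the 14 libraries and was at 0.62 with untreated d10 replicates 4 and 5 alone. Among the called genes named here, the largest values upward were those of the pancreatic genes Cela1 (6.72), Klk1 (6.19) and Ctrl (6.11). Clec3b (5.11) and Cd79a (4.38) followed. With d14 replicate 2 as the lone treated d14 tumor, Cela1 was at 1.861, Klk1 at 2.145, Ctrl at -0.32 and Cd79a at 4.27. That tumor held little pancreatic RNA, so the Cela1, Klk1 and Ctrl values depended on the other treated d14 tumors. These pancreatic values are not read as a change of the whole treated group. The largest values downward were Eno1b (-2.16), Rpl36a (-2.15), Teddm3 (-2.14), Anxa10 (-2.10) and Hspa1b (-2.08). With d14 replicate 2 as the lone treated d14 tumor Teddm3 (-2.31) and Anxa10 (-1.86) lost their calls.

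In the untreated d10 tumors, replicate 4 lay far above the other 4 for Cd79a and Ms4a1, its gap being 0.848 and 0.841 of the whole range. A rule on this gap marks about 1 in 20 groups of this size by chance when values are normally distributed. It was applied here to CPM on a linear scale and to genes already chosen, so that rate need not hold. Both genes belong to B cells and were marked by the same tumor, so they are not separate observations.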

How the results depend on the processing

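With the adjusted p alone 7093 genes passed between the treated days, 3339 higher and 3754 lower. Over the other settings the 1201 calls ranged from 950 to 1419, with 1111 by DESeq2 and 1168 with d14 replicate 2 alone, and from 986 to 1420 without 1 tumor each (862 to 1169 higher, 124 to 251 lower). Total counts in place of TMM factors moved the median of all genes to 0.11 and the share of calls that were higher from 85.2% to 91.2%. Pairing by replicate number is not stated in the labels. With replicate number as a block 1139 genes were called between the treated days and 2261 in the interaction, 1838 higher and 423 lower. The interaction gave 432 lower calls with untreated d10 replicates 1 to 3 only, 675 calls (608 higher, 67 lower) with treated d14 replicate 2 alone, and 875 (747 higher) with untreated d10 replicates 4 and 5 and treated d14 replicate 2 together. Without 1 tumor each it ranged from 1073 to 2060 (936 to 1798 higher, 96 to 262 lower), with 1073 without untreated d14 replicate 2, 1154 without treated d14 replicate 1 and 1131 without treated d14 replicate 2. Ctrl reversed to -0.32 with treated d14 replicate 2 alone (adjusted p = 0.834) and to -1.07 with untreated d10 replicates 4 and 5 as well (adjusted p = 0.223). Of the comparisons for named genes between the treated days, 2022 kept their side of the thresholds, 79 lost the call and 4 gained it. The 2022 include changes of sign where neither fit called the gene. Prf1, for example, was at -0.01 in the main fit and at 0.11 with total counts. Of 109 called genes 14 lost the call without d10 replicate 2, 9 without d14 replicate 2, 9 with all 5 groups in one fit and 6 with total counts. The cause of these moves was not tested. Settings with d14 replicate 2 alone assume that this tumor varies like the other groups. With 3 tumors a group, scarce genes such as Epx and Il13 are measured on few counts.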
